A study of Mus musculus with 8 samples.

Results

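The complement factors C3, Cfb, Cfp and C4b and the anaphylatoxin receptors C3ar1 and C5ar1 were followed in bone-marrow-derived macrophages that were positive or negative for tdT, a reporter of Il19, a cytokine gene of the Il10 family. These 6 genes were taken by symbol from a deposited table of 17823 genes. All 6 were present and all 6 passed the filter on low counts, which kept 12610 genes. There were 4 tdT-positive and 4 tdT-negative libraries of polyadenylated RNA, and both groups were numbered as replicates 1 to 4. Cells of both groups were from C57BL/6 mice, were grown for 7 days with 20 ng of recombinant M-CSF, the macrophage growth factor, and were given 1 µg/ml of lipopolysaccharide (LPS), a bacterial cell wall component. The set holds no library without LPS. The labels do not state how long LPS was applied, how the reporter was built or how the cells were divided into groups. The study set the reporter-positive against the reporter-negative cells of LPS-treated cultures.

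Complement is a cascade of plasma proteins that marks particles for uptake and attracts leukocytes. In the alternative pathway, C3b, made from C3, binds factor B (Cfb), and properdin (Cfp) stabilises the resulting convertase, which cleaves more C3. The gene C4b encodes the complement protein C4 of the classical and lectin pathways. Cleavage releases the anaphylatoxins C3a and C5a, which bind the G protein-coupled receptors C3ar1 and C5ar1, and macrophages both make several of the factors and carry both receptors.

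The libraries held 49850537 to 58516454 counts. Levels are given as CPM, counts scaled to a common library size with a correction for library composition. Il19 itself lay between 145 and 234 CPM in the tdT-positive libraries, against 9.17 to 17.0 CPM in the tdT-negative ones. The macrophage genes Adgre1 and Csf1r averaged 3595 and 2077 CPM in tdT-positive libraries and 3972 and 1945 CPM in tdT-negative ones. Some libraries stood apart. In tdT-positive number 3, 12.3% of counts fell on the ribosomal RNA gene Rn45s, against 0.302% to 0.734% in the other 7 libraries. Markers of several other cell types were lower in tdT-positive libraries. The summed level of 12 stromal markers ran from 61.5 to 150 CPM in the tdT-positive and from 255 to 2282 CPM in the tdT-negative libraries. Of the 12, 11 fell when the replicate number was included in the model as a block (the blocked fit). That fit called 7.81% of all genes lower in tdT-positive libraries. Pdgfra, 1 of the 11, averaged 0.169 CPM in the tdT-positive and 2.18 CPM in the tdT-negative libraries. It could not pass the filter on its tdT-positive libraries alone, so its call is not read as a result. The sum of 10 neutrophil markers ran from 3.47 to 7.78 CPM in the tdT-positive and from 14.9 to 276 CPM in the tdT-negative libraries, with 4 of 6 tested markers lower. Prtn3, among the lower ones, was at 0 in every tdT-positive library and averaged 0.648 CPM in the tdT-negative ones. It passed the filter only through the tdT-negative libraries, so its direction was fixed in advance. Other markers, Pdgfra aside, were not checked in this way. Elane and Retnlg were also at 0 in the tdT-positive libraries, but averaged only 0.0224 and 0.00450 CPM in their tdT-negative counterparts. The sum of 6 monocyte precursor markers ran from 20.5 to 38.7 CPM in the tdT-positive and from 52.0 to 191 CPM in the tdT-negative libraries, with 3 of 6 lower. The sum of 8 osteoclast markers ran from 127 to 326 CPM in the tdT-positive and from 108 to 2836 CPM in the tdT-negative libraries, with 3 of 7 tested lower. That sum was higher in the tdT-positive library of numbers 1 and 3, and without tdT-negative number 4 the highest tdT-negative value was 253 CPM. The sum of 7 dendritic cell markers ran from 5.45 to 9.89 CPM in the tdT-positive and from 20.4 to 34.0 CPM in the tdT-negative libraries, with 2 of 3 tested lower. B cell and T and NK cell markers summed to at most 0.118 CPM in any library, and none was tested. In the blocked fit Mertk and Mrc1 rose among the 8 macrophage markers, as did 8.03% of all genes, and the others did not pass. Of those others, Adgre1, Lyz2 and Cd14 leaned lower and Csf1r, Cd68 and Fcgr1 higher in tdT-positive libraries. The 8 markers summed to between 12499 and 15798 CPM in the tdT-positive and between 10722 and 19238 CPM in the tdT-negative libraries.

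The promoters of C3 and C5ar1 are shown because these were the members that changed, in opposite directions, in the blocked fit. Each window covers 300 bases around the gene's start (RefSeq, GRCm38.p6). The C3 window is chr17:57228087-57228386 and the C5ar1 window chr7:16259289-16259588, both on the minus strand. Capitals mark matches to the C/EBP motif, searched as TTNNGNAA on both strands. C/EBP factors are transcription factors of myeloid cells and of the acute-phase response.
C3: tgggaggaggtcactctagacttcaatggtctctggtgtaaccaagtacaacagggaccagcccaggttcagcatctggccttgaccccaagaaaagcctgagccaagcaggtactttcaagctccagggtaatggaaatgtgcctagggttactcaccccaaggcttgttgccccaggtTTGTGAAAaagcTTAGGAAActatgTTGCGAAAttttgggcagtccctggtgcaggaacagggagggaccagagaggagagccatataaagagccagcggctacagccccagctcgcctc
C5ar1: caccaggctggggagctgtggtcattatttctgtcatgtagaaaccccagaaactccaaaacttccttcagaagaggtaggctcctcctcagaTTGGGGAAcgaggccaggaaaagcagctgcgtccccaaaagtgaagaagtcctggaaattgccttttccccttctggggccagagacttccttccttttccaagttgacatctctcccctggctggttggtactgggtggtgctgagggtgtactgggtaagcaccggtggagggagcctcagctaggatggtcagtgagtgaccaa

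Counting from the gene's start, with negative positions before it, the C3 window held 3 such matches, at -70 to -63, -58 to -51 and -45 to -38. The C5ar1 window held 1, at -157 to -150 from the RefSeq start. The GENCODE annotation, used for the gene coordinates below, starts C5ar1 further upstream, at 16259540. By that annotation the match lies inside the gene. At least 1 match was present in 40.7% of 32851 promoters of the same length, so the motif is common. The same windows were searched for NF-kB, STAT (TTCNNNGAA), AP-1 (TGANTCA), PU.1 (GAGGAA) and interferon-response (ISRE) motifs, which 8.46%, 8.3%, 7.81%, 28.3% and 3.44% of promoters hold. None of these was in the C3 or C5ar1 window. The C3ar1 window held 1 AP-1 match and the Cfp window 2 PU.1 matches. No matches overlapped another motif. Promoters of 4 of the 6 genes were found by gene symbol, and Cfb and C4b are named only.

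Levels of different genes are compared as CPM per kilobase of gene length. Cfb was the most abundant of the 6, at 775 ± 107 CPM per kilobase in tdT-positive and 736 ± 209 in tdT-negative libraries (SD, n = 4 each), and ranked 61 by its mean level among the 12610 genes tested. Cfp followed with 452 ± 65.2 CPM per kilobase in tdT-positive and 440 ± 168 in tdT-negative libraries. C3ar1 had 260 ± 47.9 CPM per kilobase in tdT-positive and 282 ± 88.5 in tdT-negative libraries. C3 had 139 ± 32.7 CPM per kilobase in tdT-positive and 170 ± 43.6 in tdT-negative libraries. The order of the groups was the opposite for C5ar1, with 135 ± 22.3 CPM per kilobase in tdT-positive and 102 ± 14.9 in tdT-negative libraries. C4b stood far below, at 0.121 ± 0.0394 CPM per kilobase in tdT-positive and 0.127 ± 0.0360 in tdT-negative libraries. Inside single libraries Cfb exceeded Cfp in 8 of 8 and Cfp exceeded C3ar1 in 7 of 8, although the ranges of both pairs overlapped. C3ar1 lay above C3 with no overlap, although its lowest library, at 199.9 CPM per kilobase, was little above the highest of C3, at 198.8. C3 exceeded C5ar1 in 6 of 8 libraries, and both libraries of number 3 had the opposite order.

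**Figure D1:**
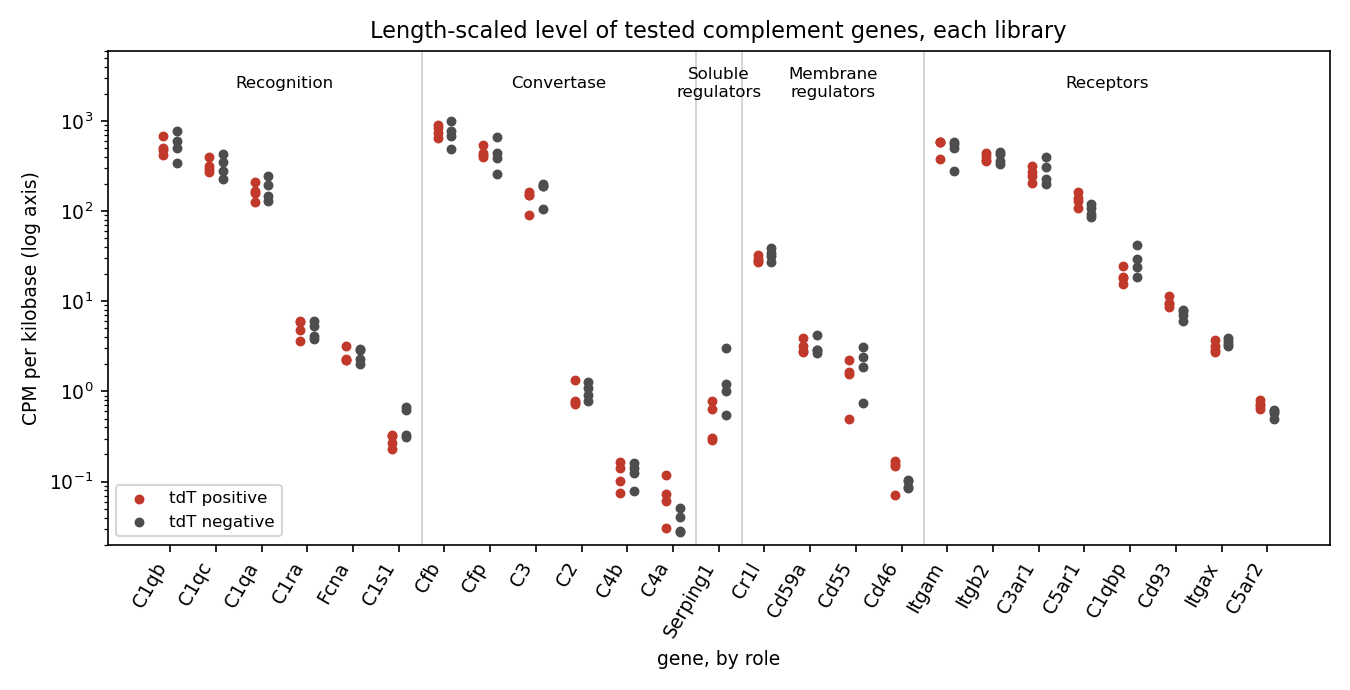
Length-scaled level (CPM per kilobase, log axis) of 25 of the 26 tested complement genes by role, with 1 point for each of 4 tdT-positive (left, red) and 4 tdT-negative (right, grey) libraries. Cfb, Cfp and C3 stand far above C2, C4b and C4a among the convertase factors, and the 2 groups overlap for most genes.

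No member passed an adjusted p under 0.05 with the group as the only term (edgeR quasi-likelihood test, Benjamini-Hochberg adjustment over all genes). That fit called 0.0238% of the genes tested, 0.00793% higher and 0.0159% lower in tdT-positive libraries. Same-numbered libraries deviated together from their group means. The blocked fit called 15.8% of genes, 8.03% higher and 7.81% lower in tdT-positive libraries. In the blocked fit C5ar1 rose, C3 fell, and Cfb, Cfp, C4b and C3ar1 did not pass. No member's groups were separate, against 5.46% of genes with all tdT-positive libraries above and 5.92% with all below the tdT-negative ones. C5ar1 was the 1 member higher in tdT-positive libraries in all 4 numbers, which held for 21.9% of genes, and C3 was the 1 member lower in all 4, which held for 19.6%.

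C3 is the central factor of all complement pathways and lies on chromosome 17 at 57203970 to 57228136 of GRCm38, on the minus strand. Its level was 774, 781, 466 and 838 CPM in tdT-positive numbers 1 to 4, and 1022, 968, 540 and 967 CPM in the tdT-negative libraries of the same numbers. Both libraries of number 3 were low, the groups overlapped, and the tdT-positive library was the lower one in each number, at 0.757, 0.807, 0.863 and 0.867 times its tdT-negative counterpart. The means were 715 ± 168 CPM in the tdT-positive and 874 ± 224 CPM in the tdT-negative libraries (SD, n = 4 each). With the block C3 fell by 0.28 on the log2 scale (SE 0.07, adjusted p = 0.0365). Without the block the log2 fold change was -0.29 (SE 0.25, adjusted p = 0.631), and the exact two-sided permutation test, which cannot go below 0.0286 here, gave p = 0.343. The blocked call was lost when number 1, 2 or 3 was left out (adjusted p = 0.157, 0.134 and 0.0633, with log2 fold changes of -0.24, -0.28 and -0.31) and was kept without number 4 (-0.29, adjusted p = 0.0257).

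C3 is also made by stromal cells, whose markers were lower in tdT-positive libraries. The summed stromal markers of the tdT-positive library were 0.304, 0.274, 0.108 and 0.0460 times those of its counterpart in numbers 1 to 4. The part of stromal RNA in the C3 result was not tested. Fewer cells of a type and less RNA per cell cannot be told apart in such bulk libraries. The small RNA gene Mir6978 lies inside C3 on the same strand and held counts equal to 0.174% to 0.273% of those of C3.

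Factor B, the protease of the alternative pathway convertase, did not pass. Cfb (chromosome 17, 34856374 to 34862518, minus strand) had 2444, 2000, 2287 and 1783 CPM in tdT-positive numbers 1 to 4, and 2117, 1879, 2734 and 1352 CPM in their tdT-negative counterparts. The tdT-positive library was higher in numbers 1, 2 and 4 and lower in number 3, and the tdT-negative libraries spanned the whole range of the tdT-positive ones. The log2 fold change was 0.11 (SE 0.11, adjusted p = 0.543) with the block and 0.08 (SE 0.22, adjusted p = 0.910) without it. Without number 3 the blocked value was 0.22 (SE 0.08, adjusted p = 0.161). The annotated gene Gm20547 (34856412 to 34882042) overlaps Cfb and its neighbour C2 on the same strand, and Mir6972 lies inside Cfb. Mir6972 held 1.78% to 2.06% as many counts as Cfb. How the authors assigned reads in such overlaps is not stated.

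Properdin, the stabiliser of that convertase, gave a similar picture. Cfp (chromosome X, 20925454 to 20931555, minus strand) had 720, 685, 895 and 659 CPM in tdT-positive and 643, 724, 1087 and 427 CPM in tdT-negative numbers 1 to 4. The tdT-positive library was higher in numbers 1 and 4 and lower in numbers 2 and 3, and the tdT-negative group spread more widely, with its lowest library in number 4. The blocked log2 fold change was 0.11 (SE 0.14, adjusted p = 0.639), and it was -0.05 without number 4 and -0.03 without the block when libraries were scaled by their totals alone.

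C4b, a factor of the classical and lectin pathways, was the least abundant member. Its counts were 46, 32, 33 and 25 in tdT-positive numbers 1 to 4 and 47, 46, 37 and 25 in the tdT-negative ones, or 0.882, 0.550, 0.765 and 0.408 CPM in the tdT-positive and 0.875, 0.772, 0.666 and 0.422 CPM in the tdT-negative libraries. The groups covered almost the same range, and the blocked log2 fold change was -0.08 (SE 0.22, adjusted p = 0.821). C4b (chromosome 17, 34728380 to 34743882) has a close copy, C4a, 65209 bases away. Of all 50-base windows of its longest annotated transcript, 35.2% occur unchanged in that of C4a, so its counts are uncertain. C4a held 86 counts over the tdT-positive and 45 over the tdT-negative libraries and did not pass (blocked log2 fold change 0.91, SE 0.42, adjusted p = 0.179).

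**Figure D2:**
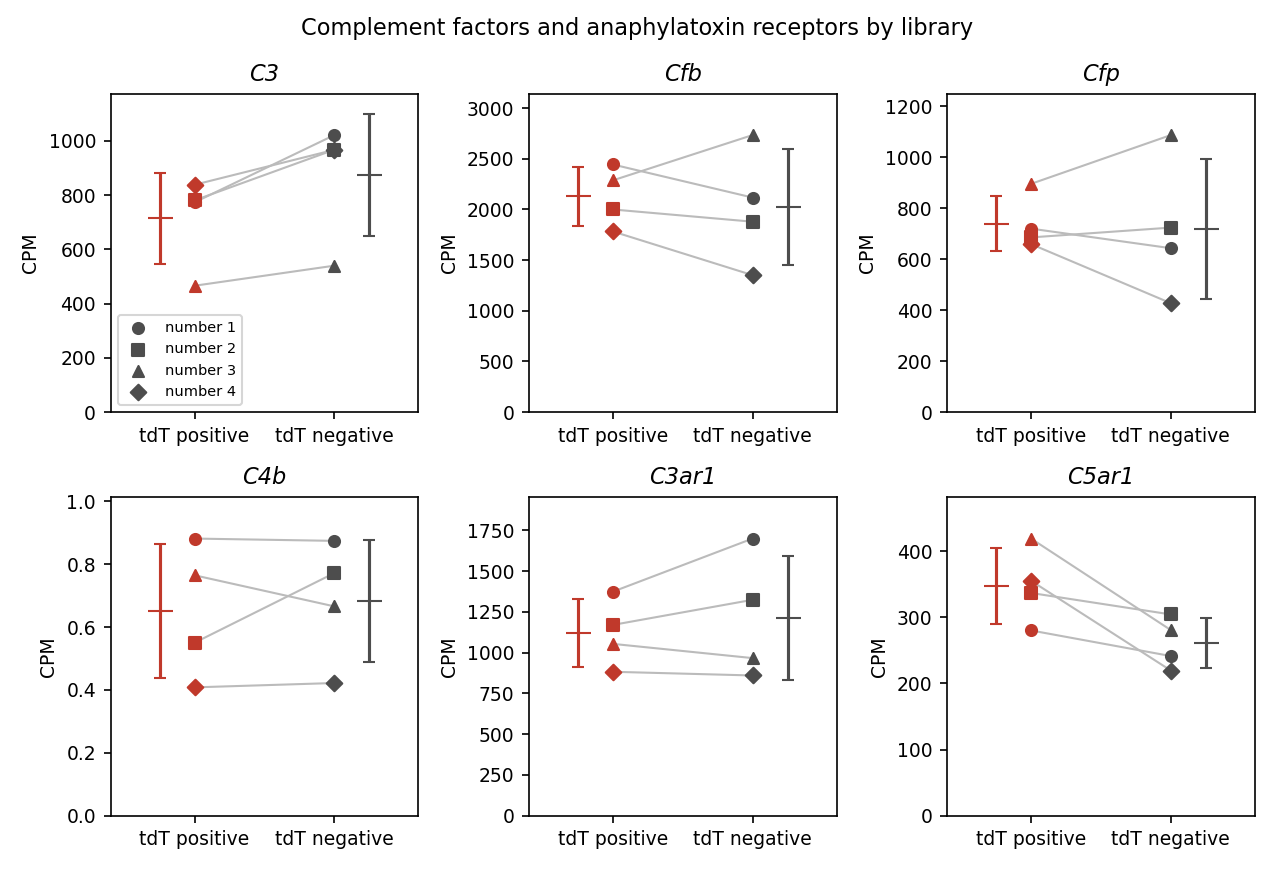
Level in CPM of the 6 genes in each of 4 tdT-positive (left) and 4 tdT-negative (right) libraries, with grey lines joining libraries of the same number and bars for mean ± SD. In all 4 numbers C3 is lower and C5ar1 higher in the tdT-positive library, whereas the other 4 genes differ in direction between numbers.

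C3ar1, the receptor of C3a, did not pass either. C3ar1 (chromosome 6, 122847138 to 122856161, minus strand) had 1373, 1169, 1053 and 882 CPM in tdT-positive and 1699, 1324, 966 and 860 CPM in tdT-negative numbers 1 to 4. It was lower in the tdT-positive libraries of numbers 1 and 2 and higher in those of numbers 3 and 4, and the groups overlapped. The blocked log2 fold change was -0.08 (SE 0.09, adjusted p = 0.581).

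C5ar1, the receptor of C5a and a strong attractant receptor of myeloid cells, was higher in tdT-positive libraries. C5ar1 (chromosome 7, 16246743 to 16259540, minus strand) had 280, 337, 419 and 355 CPM in tdT-positive and 241, 304, 281 and 219 CPM in tdT-negative numbers 1 to 4. Each tdT-positive library exceeded its counterpart, by 1.16, 1.11, 1.49 and 1.62 times, and the groups overlapped because tdT-negative numbers 2 and 3 exceeded tdT-positive number 1, number 3 by very little. C5ar1 averaged 348 ± 57.3 CPM in the tdT-positive and 261 ± 38.2 CPM in the tdT-negative libraries (SD, n = 4 each). C5ar1 rose 1.33-fold with the block (log2 fold change 0.41, SE 0.10, adjusted p = 0.0401). Without the block the value was 0.41 (SE 0.15, adjusted p = 0.226), and the exact two-sided permutation test gave p = 0.0857. The blocked call was lost without number 1, 2 or 3 (adjusted p = 0.0707, 0.0708 and 0.126, with log2 fold changes of 0.48, 0.49 and 0.34) and was kept without number 4 (0.33, adjusted p = 0.0392). Neutrophils also carry C5ar1. The summed neutrophil markers of the tdT-positive library were 0.0248, 0.0164, 0.0196 and 0.520 times those of its counterpart in numbers 1 to 4, and the part of neutrophil RNA in the C5ar1 result was not tested.

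Ratios of genes inside a library do not depend on the scaling between libraries. These ratios were chosen after the values had been seen and carry no test. C5ar1 was at 0.541 ± 0.160 times the level of C3ar1 per length in tdT-positive and 0.384 ± 0.106 times in tdT-negative libraries (SD, n = 4 each), and the ratio was higher in the tdT-positive library of all 4 numbers. The single values were 0.341, 0.482, 0.666 and 0.674 in tdT-positive and 0.238, 0.385, 0.486 and 0.427 in tdT-negative numbers 1 to 4. C3 relative to C5ar1 was 1.07 ± 0.356 in tdT-positive and 1.72 ± 0.572 in tdT-negative libraries, lower in the tdT-positive library of all 4 numbers. C3 relative to Cfb was lower in 3 of 4 numbers, at 0.185 ± 0.0605 in tdT-positive and 0.255 ± 0.114 in tdT-negative libraries, and in number 3 it was 0.109 in the tdT-positive and 0.106 in the tdT-negative library.

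**Figure D3:**
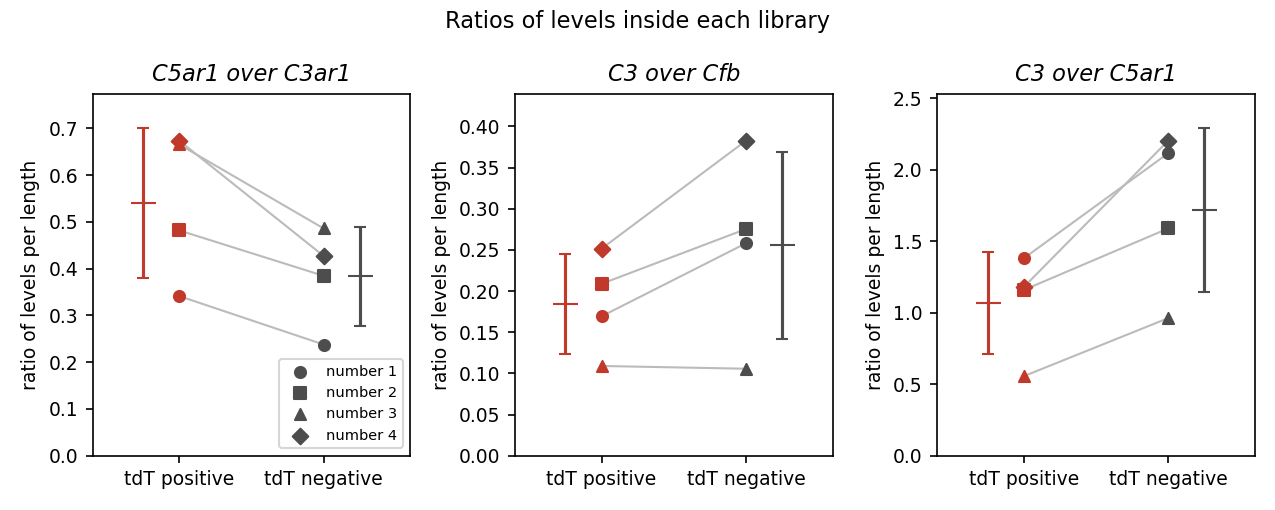
Ratio of 2 genes' length-scaled levels inside each library, for tdT-positive (left) and tdT-negative (right) libraries, with lines joining libraries of the same number and bars for mean ± SD. The ratio of C5ar1 to C3ar1 averages 0.541 in tdT-positive and 0.384 in tdT-negative libraries, and number 3 has the lowest ratios of C3 to the other genes in both groups.

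For every member but C5ar1, the range over the 4 numbers was wider than the difference between the groups. A range over 4 values tends to exceed a difference between a pair. The comparison therefore does not show that numbers varied more than groups. For C3 the highest number exceeded the lowest 1.79-fold, for C3ar1 1.75-fold, for Cfb 1.61-fold, for Cfp 1.86-fold and for C4b 2.12-fold. C5ar1 varied least, by 1.32-fold, which is close to its 1.33-fold group difference. Number 3 was the lowest for C3 and the highest for Cfb, Cfp and C5ar1, and number 4 was the lowest for C3ar1, Cfb, Cfp and C4b.

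The rest of the pathway was measured with a list of 57 complement genes, the 6 included, of which 45 are in the table and 26 were tested. With the block 2 rose, 2 fell and 22 did not pass, or 15.4% called against 15.8% of all genes, and the median blocked log2 fold change was -0.01 against 0.01 for all genes. Without the block none of the 26 passed in edgeR, and the DESeq2 Wald test called 1, Cd93. Beside C3 and C5ar1, the genes that passed with the block were Cd93 and Cd55.

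Among 8 tested receptors, C5ar1 and Cd93 rose with the block, as did 8.03% of all genes. Cd93, a surface receptor once described as a receptor of C1q, had 58.1, 63.4, 76.1 and 61.5 CPM in tdT-positive and 52.7, 47.2, 51.7 and 40.4 CPM in tdT-negative numbers 1 to 4. All 4 tdT-positive libraries lay above all tdT-negative ones, which held for 5.46% of all genes. Cd93 rose by 0.43 on the log2 scale with the block (SE 0.09, adjusted p = 0.0193), and the call was lost without number 2 or 3 (adjusted p = 0.0909 and 0.0733). C5ar2, the second C5a receptor, lies 2588 bases from C5ar1 and had 2.59, 2.89, 2.48 and 2.30 CPM in tdT-positive and 1.77, 2.23, 2.14 and 2.08 CPM in the tdT-negative libraries of those numbers. The groups were separate, but C5ar2 did not pass (blocked log2 fold change 0.32, SE 0.14, adjusted p = 0.168). Itgam, the alpha chain of complement receptor 3, was the most abundant receptor at 533 ± 102 CPM per kilobase in tdT-positive and 480 ± 139 in tdT-negative libraries. It did not pass (blocked log2 fold change 0.18, SE 0.10), nor did its partner Itgb2 (blocked log2 fold change 0.02, SE 0.07). C1qbp, a C1q-binding mitochondrial protein, averaged 22.3 ± 4.34 CPM in the tdT-positive and 33.1 ± 11.7 CPM in the tdT-negative libraries and did not pass (blocked log2 fold change -0.52, SE 0.15, adjusted p = 0.0570). C1qbp passed without number 4 (-0.30, adjusted p = 0.0199), in the blocked DESeq2 Wald test (adjusted p = 0.00893) and in blocked limma voom (adjusted p = 0.0485).

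Among 4 tested membrane regulators Cd55 fell with the block, as did 7.81% of all genes. It encodes decay-accelerating factor, which dismantles C3 convertases, and had 4.18, 5.68, 1.25 and 3.97 CPM in tdT-positive and 6.14, 7.87, 1.89 and 4.71 CPM in tdT-negative numbers 1 to 4. The groups overlapped and number 3 was low in both. Cd55 fell by 0.46 on the log2 scale with the block (SE 0.11, adjusted p = 0.0366), and the call was lost without number 1, 2 or 3 (adjusted p = 0.150, 0.157 and 0.0840). Cr1l, the rodent regulator Crry and the most abundant of the 4 genes, was at 29.5 ± 2.47 CPM per kilobase in tdT-positive and 33.1 ± 5.08 in tdT-negative libraries and did not pass (blocked log2 fold change -0.16, SE 0.06, adjusted p = 0.135).

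Recognition genes were dominated by the chains of C1q, the first component of the classical pathway. C1qb reached 520 ± 112 CPM per kilobase in tdT-positive and 554 ± 180 in tdT-negative libraries. None of the 6 tested recognition and protease genes passed. The blocked log2 fold changes of C1qa, C1qb and C1qc were -0.10, -0.05 and 0.01, and in each the tdT-positive library was lower in numbers 1 to 3 and higher in number 4. Without number 4, C1qa passed (blocked log2 fold change -0.24, adjusted p = 0.0302). Fcnb, the ficolin of neutrophils and monocytes, was below the filter and is named after its values were seen. It held 5 counts over the tdT-positive and 176 over the tdT-negative libraries, in the same direction as the neutrophil markers. Without number 4 it reached the filter, but only through its tdT-negative libraries. That fixed its direction in advance, so its blocked call there is not read as a result. None of the tested soluble regulators passed with all libraries. Serping1, the C1 inhibitor and a member of that class, had 5.46 CPM in tdT-negative number 4 and at most 2.18 CPM elsewhere, and did not pass (blocked log2 fold change -1.34, SE 0.47, adjusted p = 0.0976). Without number 4 its blocked value was -0.67 and it passed (adjusted p = 0.0354), as it did in the blocked DESeq2 Wald test (adjusted p = 0.0310).

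None of the terminal factors reached the filter. Hc, which encodes C5, the precursor of the C5ar1 ligand, held 23 counts over the tdT-positive and 21 over the tdT-negative libraries. C8g, the highest of them per length, held 10 counts over the tdT-positive and 6 over the tdT-negative libraries.

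**Figure D4:**
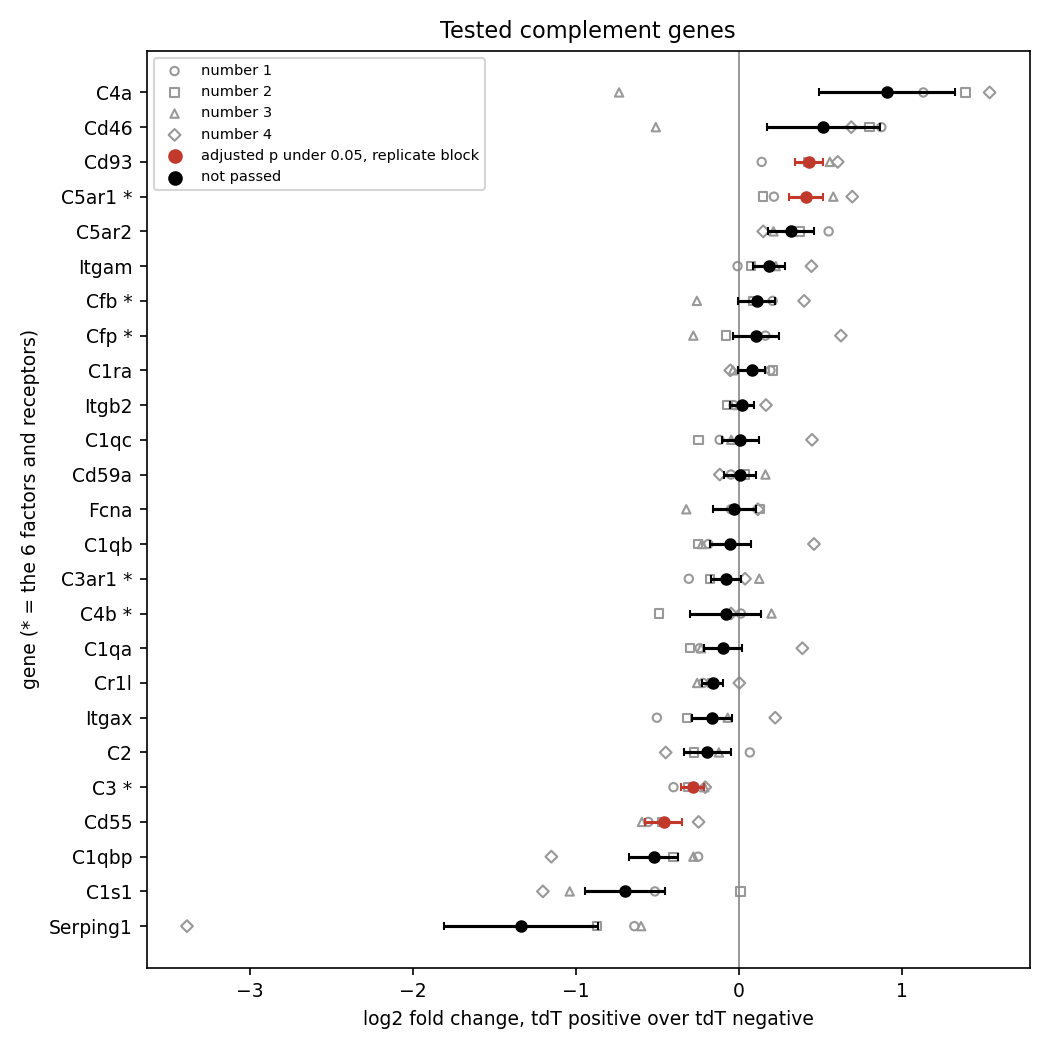
Log2 fold change, tdT positive over tdT negative, of 25 of the 26 tested complement genes. Filled points give the blocked fit ± SE, in red where the adjusted p was under 0.05, and open symbols give the difference inside each number. Cd93 and C5ar1 lie above 0 and C3 and Cd55 below it in all 4 numbers.

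The genes whose pattern over the 8 libraries was most like each member's were sought among 9196 genes with a symbol and a mean log2 CPM of at least 2. Likeness was the mean absolute difference between log2 CPM values centred on each gene's own mean. The genes were chosen on the same 8 libraries, so their group differences are not independent of those of the members. For C3 the closest were Pgm2 (0.10) and Anxa1 (0.11), the gene of annexin A1, which fell with the block (log2 fold change -0.37, adjusted p = 0.0125). For C5ar1 they were Dhrs1 and Apobr (0.06 each), of which Apobr rose with the block (log2 fold change 0.36, adjusted p = 0.0262), and for C3ar1 Coro2a and Samhd1 (0.06 each). For Cfb they were Mir6972, which lies inside it, and Aoah (0.05 each). For Cfp they were Pilra (0.05) and Cd302 (0.06), and for C4b Efhd2 (0.08) and Pgap2 (0.10).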

How the data were processed

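Per the labels' protocols, 220 ng of total RNA went into each library, made with a strand-preserving kit for polyadenylated RNA. The authors deposited 1 table of raw counts, whole numbers for each gene, beside Entrez identifiers and gene lengths in bases. STAR and mm10 are the tool and genome build named in the submitters' processing notes. The sources used here do not give the tool and annotation behind the counts, or whether strand was used. Each column was tied to its sample through the description, and groups come from the titles.

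Genes passing edgeR's default filter (edgeR 4.0.16, with at least 10 counts in enough libraries and 15 in total) received TMM scaling factors (trimmed mean of M values) and were tested with its quasi-likelihood test, with p-values adjusted by Benjamini-Hochberg over all genes. What a replicate number stands for is not in the labels, and p-values reflect only the variation among these samples, which may be technical. For numbers 1 to 4, the deviations of same-numbered libraries from their group means had correlations of 0.63, 0.28, 0.62 and 0.56, all above 0.1. Libraries of unlike number ran from -0.42 to 0.23. Of these, tdT-positive number 2 with tdT-negative number 4 (0.23) and tdT-positive number 1 with tdT-negative number 2 (0.15) also exceeded 0.1. The pairing is thus least clear for number 2. The fit with the group as the only term was the main fit, and the block was an alternative. The numbers were taken to pair the samples, and blocked values are printed also for genes whose call they do not change. No library repeated another (chi-square per degree of freedom of 54.0 or more). Alternatives used DESeq2 1.42.0 and limma 3.58.1. Coordinates are from GENCODE on GRCm38, the build mm10 names. The members, lists and rules were chosen with earlier results of these data known. The text names the 6 members, the complement genes called with or without the block, the most abundant of each role, save 1 gene that is not reported here, and the 2 genes most like each member. Adgre1, Csf1r, Rn45s, C5ar2, C4a, Itgb2, C1qbp, C1qa, C1qc, Serping1, Fcnb, Hc, Mir6978 and Gm20547 were named after their values were seen. The most abundant marker of each list with a tested gene was Col1a1 for stromal cells, S100a9 for neutrophils, Chil3 for monocyte precursors, Mmp9 for osteoclasts, Fscn1 for dendritic cells and Lyz2 for macrophages. In tdT-positive libraries they averaged 32.4, 0.713, 0.454, 145, 6.90 and 5662 CPM. In tdT-negative libraries they averaged 320, 102, 54.7, 430, 25.7 and 6208 CPM.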

Additional observations from a re-analysis of the deposited data

Results flagged for a closer look

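In each group of 4 libraries the highest and the lowest value were compared with the others, for the genes named by rule and the marker sums, 44 groups in all. Chance marks about 1 in 20 such groups, and 4 were marked. C3 in tdT-negative number 3 was 540 CPM, whereas the other 3 tdT-negative libraries lay between 967 and 1022 CPM. Itgam in tdT-positive number 4 was 1779 CPM, whereas the other 3 tdT-positive libraries lay between 2714 and 2745 CPM. The stromal marker sum in tdT-negative number 4 was 2282 CPM, against at most 570.3 CPM in the other tdT-negative libraries. The osteoclast marker sum in the same library was 2836 CPM, against at most 253 CPM.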

How the results depend on the processing

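With the group as the only term, 3 genes passed in all and none of the complement list (2058 genes had an unadjusted p under 0.05). The blocked fit called 1998 genes, 1013 higher and 985 lower in tdT-positive libraries, and 4 of the list. Scaled by library totals it called 425 higher and 995 lower. With the block, the counts for all genes and for the list were 2504 and 6 (DESeq2 Wald test), 2144 and 5 (limma voom), 1990 and 4 (DESeq2 size factors), 1420 and 4 (library totals), 1989 and 4 (upper-quartile factors), and 1023 and 1, 347 and 0, 355 and 0, and 2535 and 8 without numbers 1, 2, 3 and 4. Beside C3, C5ar1, Cd55 and Cd93, those calls were C1qbp (DESeq2 Wald test, limma voom, without number 4), Serping1 (DESeq2 Wald test, without number 4), and C1qa and Fcnb (without number 4). Fcnb reached the filter there only through its tdT-negative libraries. Without the block, omitting the filter gave 216 genes and 1 of the list, Fcnb, and the DESeq2 Wald test 921 and 1. Leaving out single libraries gave 2 to 456 genes and 0 to 1 of the list, with 456 without tdT-negative number 1 and 225 without tdT-negative number 4. Under the stricter filter C4b was not tested.

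C3 kept its direction in all 25 alternatives and C5ar1 in all 25. With the replicate block C3 passed at -0.28, and at -0.29, -0.28, -0.29, -0.36 and -0.32 with those 5 other tools and scalings in the same order, and at -0.29 without number 4. C5ar1 passed with the replicate block at 0.41, then at 0.40, 0.41, 0.40, 0.33 and 0.37, and at 0.33 without number 4. Adjusted p over the 10 blocked fits ran from 5.55e-05 to 0.157 for C3 and from 0.00116 to 0.126 for C5ar1, and over the 15 others from 0.346 to 0.823 and from 0.104 to 0.378. The other 4 members passed in no alternative. Their direction reversed in places, in 5 alternatives for Cfp, 4 for C4b, 1 for Cfb and 1 for C3ar1. Among these, Cfp had a log2 fold change of -0.0276 with library totals and -0.0523 with the replicate block without replicate 4. C4b had 0.0491 with the replicate block without replicate 2. Cfb had -0.0776 without tdT-negative replicate 4, and C3ar1 had 0.0976 without tdT-negative replicate 1. Leaving out single libraries gave ranges of -0.46 to -0.13 for C3, -0.25 to 0.10 for C3ar1, 0.31 to 0.51 for C5ar1, -0.08 to 0.26 for Cfb, -0.15 to 0.31 for Cfp and -0.25 to 0.10 for C4b. The cause was not tested. A count of 3 corresponds to 0.0490 to 0.0696 CPM in a library, which limits what can be said of the untested genes, and covers counting error only. C4b lay above this floor, at 25 to 47 counts in a library, but its counts are uncertain because of C4a.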
